A study of Arabidopsis thaliana with 24 samples.

Results

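The genes described are the 54 of 27655 genes in the deposited table whose MapMan functional bin contains the term chromatin structure.histone. They were followed across 8 groups of rosettes of Arabidopsis thaliana Col-0, a wild-type accession, with 3 libraries in each group. Seedlings on soil were moved to new soil at 2 weeks and treated 14 days later. The control group stayed at 22 °C. The salt group was watered with 150 mM NaCl, the mannitol group with 200 mM mannitol and the salt plus mannitol group with a solution of both, each 16 h before harvest. The heat group was moved to a different cabinet at 35 °C for the final 4 h, and 3 further groups combined heat with salt, with mannitol or with both. The labels mention no watering at that time for control and heat-only plants, so in any comparison of a watered with an unwatered group the solute and the watering cannot be told apart. Heat and the change of cabinet cannot be told apart either. The labels do not say whether a library came from 1 plant or a pool, so the p-values reflect only how these 3 libraries per group varied, which may be technical.

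Histones are the proteins around which DNA is wound in nucleosomes, with H2A, H2B, H3 and H4 in the core and H1 bound to the linker DNA. Plants make replicative histones, which package newly copied DNA and peak in S phase, and replacement variants that are exchanged outside S phase, and most plant histone mRNAs carry a poly(A) tail. By gene, the 54 fell into 3 linker H1 genes, 4 H2A.Z, 2 H2A.X, 3 H2A.W and 4 canonical H2A genes, 11 H2B genes, 5 H3.1, 3 H3.3 and 5 other H3 genes, 8 H4 genes and 6 genes of proteins with the winged-helix domain of linker histones H1 and H5. The sub-bins of the table did not always follow these classes: HTB2 and HTB9, which encode H2B, were filed with H2A. The centromeric H3 gene HTR12 was in another bin and is not one of the 54. Whole rosettes were measured, so fewer cells of a type and less RNA per cell cannot be told apart in any of the values.

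Libraries held 12.5 to 19.5 M reads. Of the 54 genes, 49 passed the filter on low counts and were tested, and 5 did not: the H2B gene AT1G08170, the winged-helix gene AT1G54230, and the H3 genes AT5G12910, AT1G75600 and MGH3. MGH3, whose protein is known from sperm cells, reached at most 0.136 TPM (transcript abundance scaled by length and library, as deposited) in any library. AT1G54230 was at 0 in every library, and AT1G08170, AT5G12910 and AT1G75600 reached at most 0.344, 0.369 and 1.04 TPM. Of the tissue markers, the 4 leaf genes, the 3 root genes, the meristem genes STM and KNAT1 and the pollen gene ANX1 were detected in every group. The flower genes AP1 and AG and the meristem gene WUS stayed under 0.5 TPM.

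In control rosettes, H3.3 and H4 were the most abundant classes per transcript length. Summed TPM was 1624 ± 13.1 (mean ± SD, n = 3) for H3.3, 1457 ± 112 for H4, 1175 ± 82.5 for H2B and 514 ± 57.1 for H3.1. Canonical H2A stood at 369 ± 21.1, linker H1 at 333 ± 11.9, H2A.Z at 297 ± 22.6, H2A.W at 219.6 ± 18.1 and H2A.X at 169.7 ± 18.02. The winged-helix genes summed to 116 ± 4.31 and the other H3 genes to 3.53 ± 0.902. The H3.3 gene AT4G40040 was the highest of the 54 at 825 ± 7.43 TPM.

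Short motifs that are known from plant histone promoters were searched in the 250 bases before the start of each transcript in the RefSeq genome build TAIR10.1. The octamer CGCGGATC, on either strand, was present in 10 of the 54 windows, against 35 of 27443 windows of all genes (0.128%). The 10 belonged to the linker gene AT1G06760, the H2A genes HTA6, HTA10 and HTA13, the H3.1 genes AT5G65360, AT1G09200 and AT5G10400, the H3.3 gene AT4G40040 and the H4 genes AT5G59690 and AT1G07660. A match describes the letters in the window and not a site in use. Windows of 3 genes are shown with the octamer, or its reverse complement, in capitals, because they share the motif and differ in heat: HTA6 fell furthest of the 49 tested genes, the H3.1 gene AT1G09200 also fell, and HTA10, with 2 copies of the octamer like AT1G09200, was not called in heat against control. They lie at chr5:24116221-24116470 on the minus strand, chr1:2972335-2972584 on the minus strand and chr1:18926561-18926810 on the plus strand, and are written 5′ to 3′ along the gene.
HTA6: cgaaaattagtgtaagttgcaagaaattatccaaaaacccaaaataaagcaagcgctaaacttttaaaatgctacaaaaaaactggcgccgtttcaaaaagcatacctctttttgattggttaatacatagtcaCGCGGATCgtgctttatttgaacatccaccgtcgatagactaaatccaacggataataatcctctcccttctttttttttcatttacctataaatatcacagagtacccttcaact
AT1G09200: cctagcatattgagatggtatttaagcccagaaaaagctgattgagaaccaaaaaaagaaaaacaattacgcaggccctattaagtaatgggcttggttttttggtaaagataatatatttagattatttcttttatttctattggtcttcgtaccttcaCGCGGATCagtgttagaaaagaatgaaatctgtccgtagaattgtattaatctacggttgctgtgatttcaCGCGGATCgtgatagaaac
HTA10: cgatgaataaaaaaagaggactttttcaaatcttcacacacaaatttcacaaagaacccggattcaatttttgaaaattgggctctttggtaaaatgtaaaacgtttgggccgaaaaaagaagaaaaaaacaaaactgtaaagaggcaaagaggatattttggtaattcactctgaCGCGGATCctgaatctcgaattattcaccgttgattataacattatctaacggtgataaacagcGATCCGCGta

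Other motifs were searched in the same windows. Forms of the E2F site (TTTCCCGC, TTTGGCGC, TTTCGCGC or TTTGCCGC, either strand) were in 3 of the 54, HTB2, AT3G46320 and AT3G45930, and in 1.42% of all windows. The heat shock element, as 3 alternating GAA and TTC units with gaps of 2 bases on either strand, was in 0 of the 54 and in 0.379% of all. Forms of the abscisic acid element (ACGTGGC or ACGTGTC, either strand) were in 8 of the 54, among them HIS1-3, whose window reaches into another annotated transcript of the gene, and in 6.501% of all. No form of these motifs contains another.

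Heat lowered most histone genes. In heat against control, 38 of the 49 tested genes fell, 3 rose and 8 were not called, with a median log2 fold change of -0.91 against -0.0022 over all 20027 genes tested. Calls are adjusted p-values under 0.05, and 62.6% of all tested genes were called in the same comparison, 30.9% lower and 31.7% higher. Summed TPM of core and linker histones was 6026, 5944 and 6513 in the control libraries and 3248, 3189 and 2992 in the heated ones. As a share of all TPM this was 0.591 ± 0.0191% in control and 0.2998 ± 0.0186% in heat, and no heated library overlapped an unheated one (0.289 to 0.396% against 0.554 to 0.641%).

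**Figure D1:**
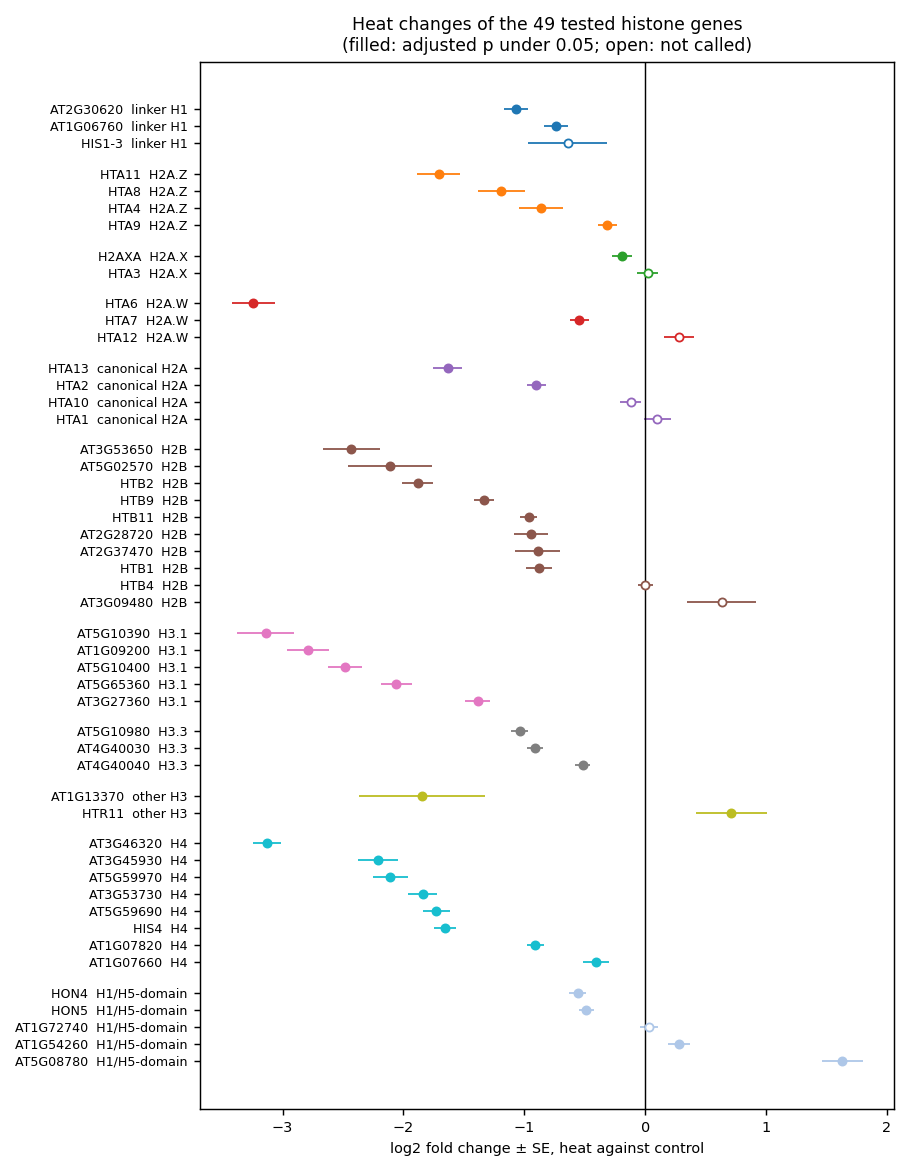
Log2 fold change ± SE of heat against control for the 49 tested genes, grouped by class, with filled points for genes called and open points for genes not called. The 5 H3.1 and 8 H4 genes all lie left of 0, while HTB4 lies on it and AT5G08780 is the farthest right at 1.63.

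Linker H1 genes differed in how far they fell. AT2G30620, a main linker histone, was at 151, 154 and 151 TPM in the control libraries and 78.2, 69.0 and 68.4 in the heated ones, a log2 fold change of -1.07 ± 0.10 (± SE, edgeR quasi-likelihood test, Benjamini-Hochberg adjusted p = 4.24e-09, n = 3 per group). Its close relative AT1G06760 was at 139, 132 and 129 TPM in control and 86.6, 73.9 and 76.8 in heat (-0.74 ± 0.10, adjusted p = 1.41e-06). Neither gene's heated libraries overlapped the controls. The share of all tested genes without such overlap was not counted, here or in any later comparison. HIS1-3, a small linker histone known to be induced by drought and abscisic acid, was at 48.1, 54.7 and 38.7 in control and 27.4, 34.1 and 28.5 in heat. Its groups did not overlap, but the change of -0.64 ± 0.33 was not called (adjusted p = 0.0988). With only the compared groups fitted it was called (-0.63 ± 0.14, adjusted p = 0.00348).

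All 4 H2A.Z genes fell with heat. H2A.Z is a replacement variant placed by the SWR1 complex and known from the warm-temperature response of Arabidopsis. HTA9, the most abundant, moved least, from 202, 202 and 226 to 163, 179 and 161 TPM (-0.31 ± 0.081, adjusted p = 0.00198). HTA11 went from 45.2, 41.8 and 55.9 to 15.8, 15.8 and 11.7 (-1.71 ± 0.18, adjusted p = 2.64e-08). Between them, HTA8 went from 14.6, 14.9 and 16.5 to 6.60, 6.55 and 6.83 (-1.19 ± 0.19, adjusted p = 1.31e-05), and HTA4, which is placed here with H2A.Z by its family, from 23.4, 23.9 and 24.8 to 13.5, 9.22 and 16.8 (-0.86 ± 0.18, adjusted p = 0.000267). In none of the 4 genes did heated and control libraries overlap.

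The remaining H2A genes split within each class. Among H2A.W genes, whose products mark heterochromatin, HTA6 dropped from 109, 97.4 and 122 TPM to 15.3, 9.37 and 9.86 (-3.24 ± 0.18, adjusted p = 2.17e-12). HTA7 fell from 86.0 ± 5.35 to 58.5 ± 5.34 (-0.54 ± 0.079), and HTA12 was not called (0.28 ± 0.13, 23.9 ± 2.13 and 28.9 ± 1.86 TPM). Among canonical H2A genes, HTA13 fell by 1.63 ± 0.12 and HTA2 by 0.90 ± 0.078 on the log2 scale. HTA10, which has 2 octamers in its window above, was at 165, 157 and 164 in control and 164, 141 and 139.6 in heat and was not called (-0.12 ± 0.087). HTA1 was not called either (0.10 ± 0.11, 44.4 ± 2.78 and 47.2 ± 5.67 TPM).

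H2A.X, the variant that is phosphorylated at DNA breaks, moved little. H2AXA was at 128, 108 and 131 TPM in control and 106, 111 and 102 in heat, a called fall of -0.19 ± 0.082 (adjusted p = 0.0457) with overlapping groups that was lost without control 1, control 3, heat 1 or heat 3. HTA3 was not called (0.020 ± 0.090). The H2A.X share of all H2A transcripts was 16.1 ± 1.28% in control and 21.3 ± 0.198% in heat, and the H2A.W share 20.8 ± 0.298% and 13.6 ± 0.382%. Over all 24 libraries, the H2A.W share was 20.6 to 22.9% in unheated and 13.2 to 14.8% in heated libraries, which do not overlap.

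Of 10 tested H2B genes, 8 fell with heat, 0 rose and 2 were not called. AT3G53650 went from 11.3, 11.2 and 13.3 to 2.42, 2.61 and 1.496 TPM (-2.43 ± 0.24, adjusted p = 7.58e-09), with no overlap. Abundant members followed with HTB2 at -1.88 ± 0.13, HTB9 at -1.33 ± 0.082, HTB11 at -0.96 ± 0.072, AT2G28720 at -0.95 ± 0.14, AT2G37470 at -0.89 ± 0.18 and HTB1 at -0.88 ± 0.11. The low gene AT5G02570 (3.42 ± 0.801 TPM in control) changed by -2.11 ± 0.35. HTB4, the most abundant H2B gene, was at 267, 266 and 298 in control and 267, 288 and 270.3 in heat, and its 24 libraries ranged from 253 to 299 TPM. AT3G09480 (3.08 ± 1.13 and 4.72 ± 1.13 TPM) was not called at 0.63 ± 0.29.

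**Figure D2:**
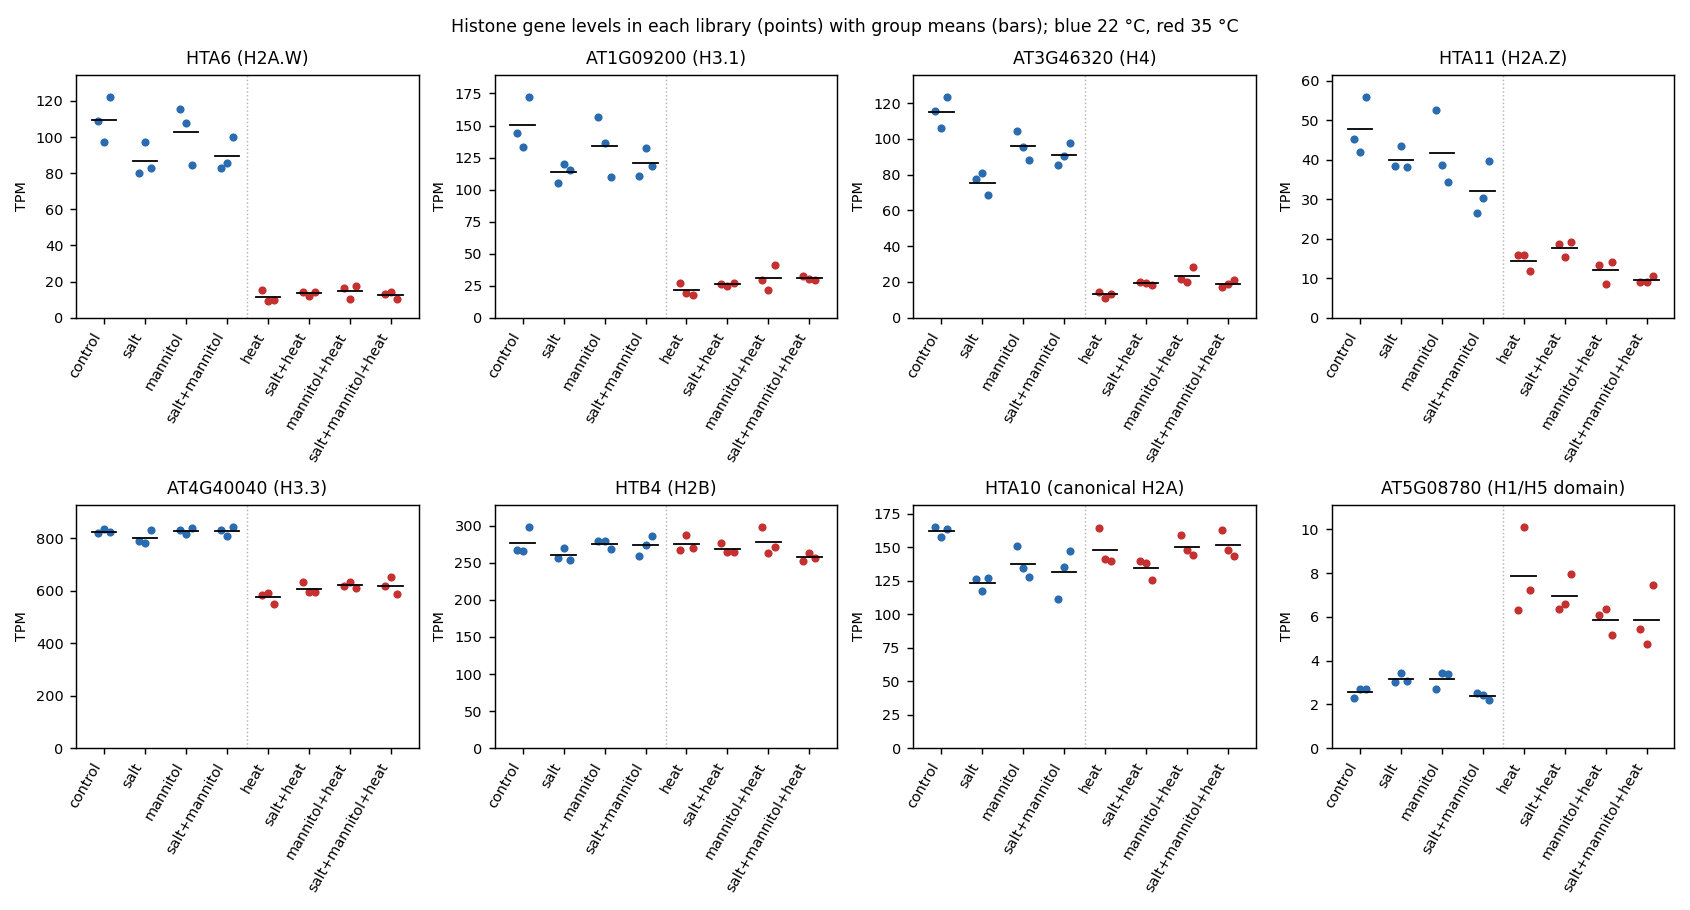
TPM in each of the 24 libraries (points) with group means (bars) for 8 genes, unheated groups in blue and heated groups in red. Heated libraries lie below all unheated ones for HTA6, AT1G09200, AT3G46320, HTA11 and AT4G40040 and above them for AT5G08780, while HTB4 and HTA10 overlap.

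All 5 replicative H3.1 genes and all 3 replacement H3.3 genes fell, and in this comparison every H3.1 gene had a larger log2 change than every H3.3 gene, a difference that was not tested itself. In watered plants the ranges overlapped with salt, where the smallest H3.1 change was -0.78 and the largest H3.3 change -0.94, and with mannitol, at -0.95 and -0.97. H3.1 is laid down at the replication fork by the chaperone CAF-1, and H3.3 is exchanged at transcribed genes. AT5G10390 went from 39.2, 37.8 and 46.2 TPM in control to 6.05, 4.28 and 3.48 in heat (-3.14 ± 0.23, adjusted p = 1.68e-10). AT1G09200, with 2 octamers in the window above, went from 144, 133 and 173 to 27.2, 19.7 and 17.8 (-2.79 ± 0.17, adjusted p = 2.76e-11). AT5G10400 went from 75.0, 82.0 and 90.2 to 18.6, 12.8 and 12.5 (-2.48 ± 0.14, adjusted p = 9.46e-13). The remaining H3.1 genes AT5G65360 and AT3G27360 changed by -2.06 ± 0.13 and -1.39 ± 0.11, and no H3.1 gene had overlapping groups. Of the transcript of AT3G27360, 38.1% of 31-base words also occur elsewhere, most in the overlapping gene AT3G27380, so its counts are uncertain. In all, 13 of the 54 overlap another annotated gene (AT1G06760, AT2G30620, HTA4, HTA9, HTA3, HTA12, HTA13, HTB9, AT5G02570, AT3G27360, AT5G12910, HON4 and AT5G08780; HTA12 and AT5G02570 overlap each other), and without strand the reads of overlapping genes cannot be told apart.

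The 3 H3.3 genes stayed abundant. AT4G40040 was at 819, 833 and 821 TPM in control and 581, 589.9 and 549.8 in heat (-0.52 ± 0.061, adjusted p = 1.55e-07). AT4G40030 was at 440.0, 451 and 451 and 251, 231 and 226 (-0.91 ± 0.067, adjusted p = 6.89e-11), and AT5G10980 at 351, 352 and 352 and 165, 174 and 172 (-1.04 ± 0.070, adjusted p = 1.63e-11). In none of the 3 did heated and control libraries overlap. The H3.1 share of H3.1 plus H3.3 transcripts was 24.01 ± 2.01% in control and 10.02 ± 1.21% in heat. Across all libraries it was 19.3 to 26.3% unheated and 9.07 to 13.8% heated.

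**Figure D3:**
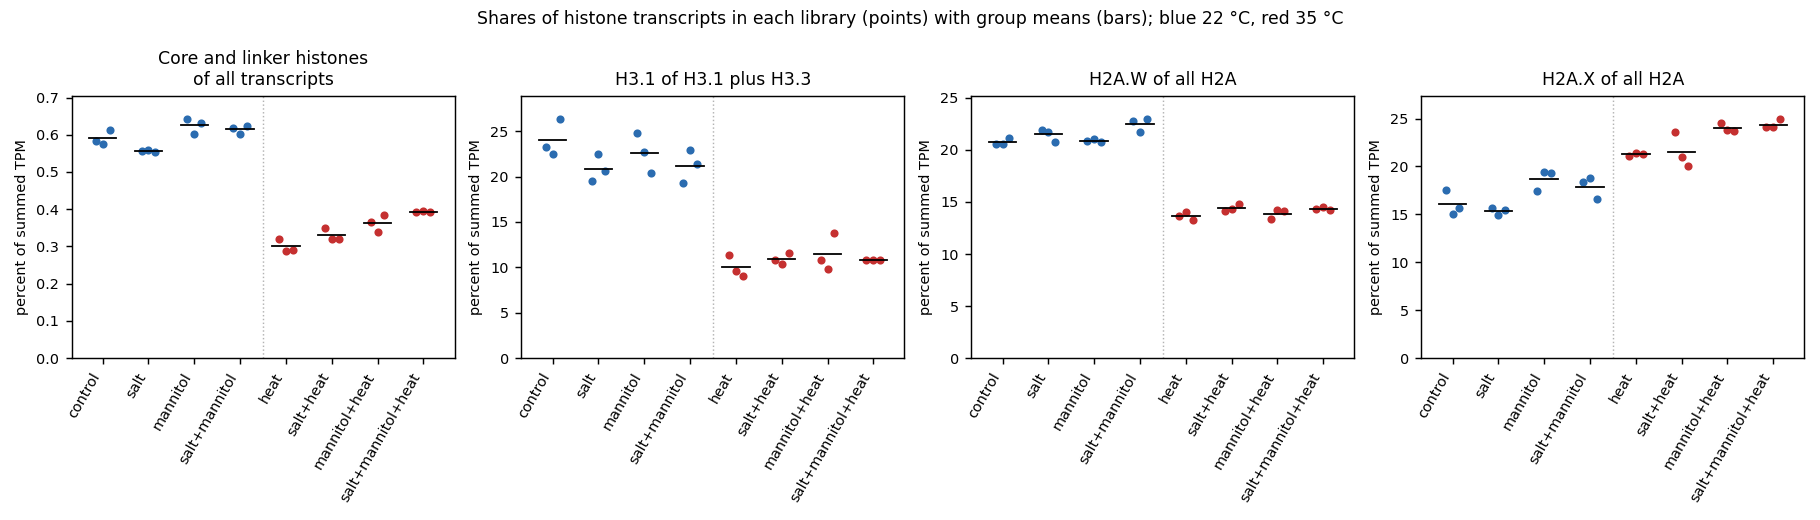
Percent of summed TPM in each library (points) with group means (bars), for core and linker histones among all transcripts, H3.1 among H3.1 plus H3.3, and H2A.W and H2A.X among H2A, unheated in blue and heated in red. Heated libraries lie below all unheated ones in the first 3 panels and above them in the last.

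Other H3 genes were low. AT1G13370 fell (-1.85 ± 0.52, 1.03 ± 0.205 and 0.273 ± 0.132 TPM) and HTR11 rose (0.71 ± 0.29, 2.24 ± 0.902 and 3.61 ± 0.126 TPM), a call lost when any of 5 of the 6 libraries was left out (all but control 3). The centromeric H3 gene HTR12, outside the 54, was at 3.33, 2.80 and 5.83 in control and 1.45, 1.15 and 1.28 in heat (-1.59 ± 0.27, adjusted p = 2.29e-05).

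All 8 H4 genes, which encode the same core protein, fell with heat, but by different amounts. AT3G46320 went from 115, 106 and 124 TPM to 14.6, 11.3 and 13.4 (-3.13 ± 0.12, adjusted p = 6.75e-16). AT1G07660 moved least, from 57.8 ± 6.13 to 43.5 ± 6.32 (-0.40 ± 0.11, adjusted p = 0.0025). In between were AT3G45930 at -2.21 ± 0.17, AT5G59970 at -2.11 ± 0.14, AT3G53730 at -1.84 ± 0.12, AT5G59690 at -1.73 ± 0.11, HIS4 at -1.65 ± 0.091 and AT1G07820 at -0.91 ± 0.071. No H4 gene had overlapping groups (the share over all tested genes was not counted). AT3G46320 and AT3G45930 share 35.3% and 32.7% of their 31-base words with other transcripts, mostly each other, and AT1G07660 and AT1G07820 34.3% and 25.3%, so reads may be split between the members of each pair.

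The winged-helix genes did not move as a class. HON4 and HON5 fell (-0.56 ± 0.073 and -0.49 ± 0.061). AT5G08780 rose from 2.30, 2.70 and 2.71 TPM to 6.31, 10.11 and 7.21 (1.63 ± 0.17, adjusted p = 1.93e-08), the largest rise of the 49 tested genes. AT1G54260 rose from 16.1, 17.3 and 15.1 to 19.995, 18.7 and 19.7 (0.28 ± 0.090, adjusted p = 0.00962), a call lost without control 3 (0.22), and AT1G72740 was not called (0.033 ± 0.073).

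Single-exon core histone genes had a lower median heat change than those with introns, a difference that was not tested. Of 25 single-exon genes, all of them core histones, 23 were tested, and 20 fell and 1 rose, with a median of -1.73. Of 20 core histone genes with at least 2 exons, 18 were tested, and 14 fell and 0 rose, with a median of -0.70. By the octamer, over all classes, 9 of 10 genes with it fell (median -1.68), against 29 of 39 tested genes without it (median -0.91). Among core histone genes alone, 8 of 9 with it fell (median -1.73), against 26 of 32 without it (median -0.96). Of all tested genes, 30.9% fell. These are counts over genes that share families, and exon number and class cannot be told apart, since all H2B genes have 1 exon and no H2A gene does.

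The heat fall recurred in watered plants. In salt plus heat against salt, 37 of 49 genes fell and 5 rose (59.1% of all tested genes called, 28.5% lower and 30.6% higher), with a median of -0.68. In mannitol plus heat against mannitol, 37 fell and 4 rose (61.0% called, 30.1% lower and 30.9% higher), with a median of -0.72. In salt plus mannitol plus heat against salt plus mannitol, 33 fell and 5 rose (59.9% called, 29.4% lower and 30.5% higher), with a median of -0.59. The 4 heat comparisons share no library. In all 4, the same 33 genes fell and AT5G08780 rose, and HTA1 and HTB4 were called in none. In 28 genes, all 12 heated libraries lay below all 12 unheated ones. The shares of all tested genes that fell in all 4, or that split this way, were not counted.

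**Figure D4:**
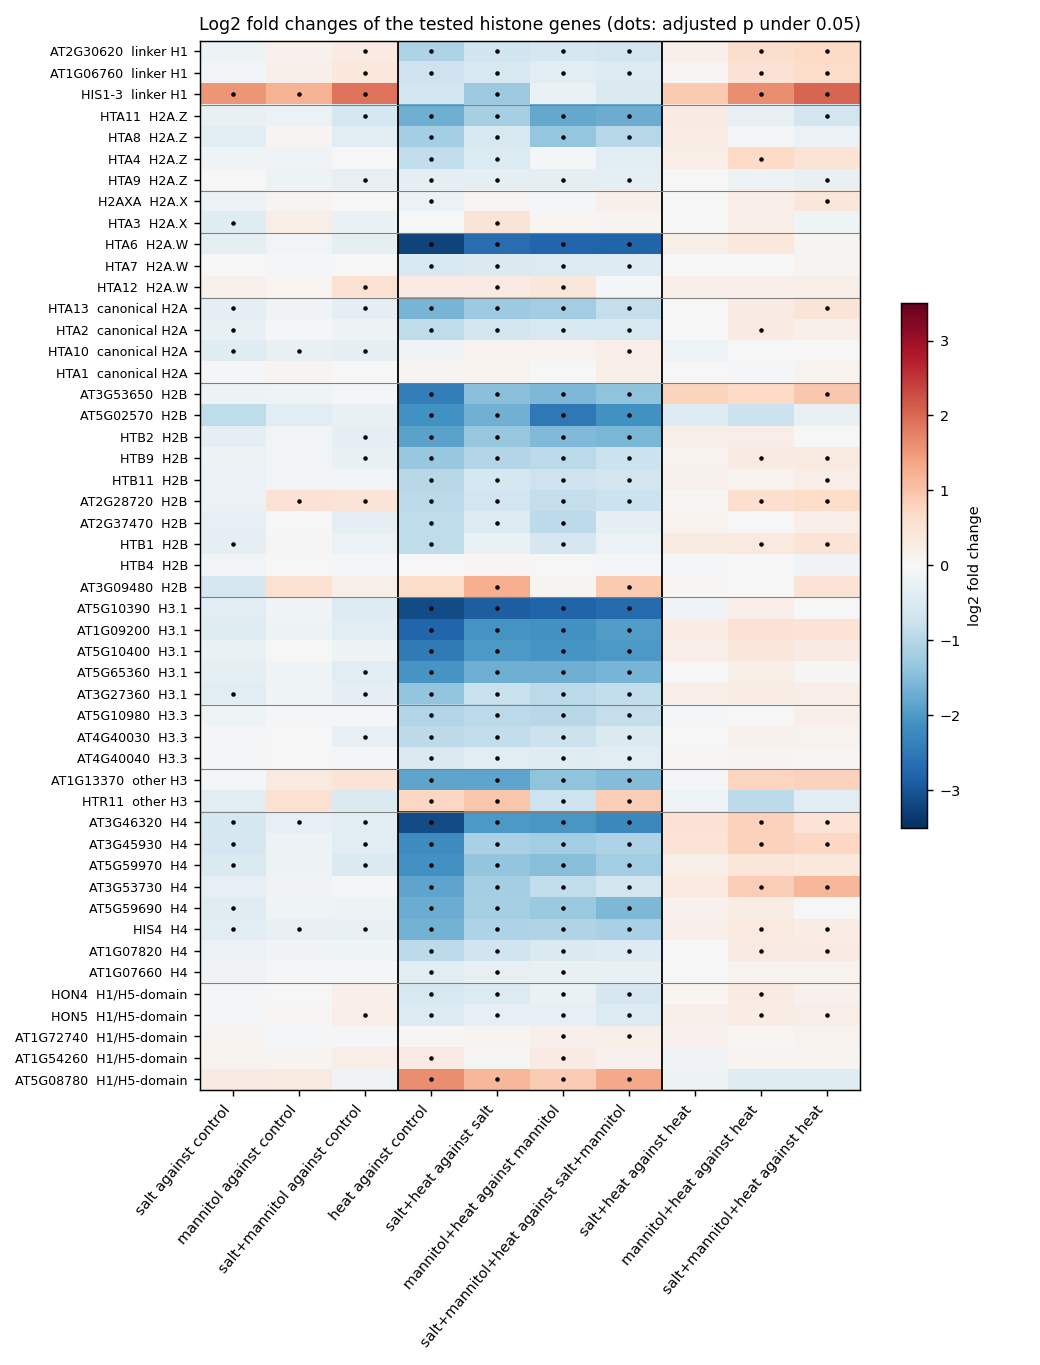
Log2 fold changes of the 49 tested genes (rows, by class) in 10 comparisons (columns), blue for lower and red for higher, with dots on calls. The 4 heat columns are blue for 33 genes with calls throughout, and HIS1-3 is the row with the deepest red in the columns for salt, mannitol and both.

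In HTA6, TPM was 14.3, 12.1 and 14.03 with salt plus heat, 16.3, 10.2 and 17.8 with mannitol plus heat and 13.2, 14.05 and 10.6 with all 3. Its unheated values were 80.1, 97.3 and 83.1 with salt, 116, 108 and 84.4 with mannitol and 83.0, 85.4 and 100.1 with both. The matching heat changes were -2.68 ± 0.18 (adjusted p = 6.44e-11), -2.78 ± 0.17 (adjusted p = 2.68e-11) and -2.80 ± 0.18 (adjusted p = 3.98e-11). No heated library of HTA6 overlapped an unheated one. For AT5G10390, the changes were -2.89 ± 0.25, -2.80 ± 0.23 and -2.68 ± 0.24, for AT1G09200 -2.10 ± 0.17, -2.11 ± 0.17 and -1.95 ± 0.17, and for AT3G46320 -2.001 ± 0.12, -2.04 ± 0.11 and -2.25 ± 0.12. HTA11 fell by 1.16 ± 0.18, 1.78 ± 0.19 and 1.73 ± 0.20.

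Several members changed call with the watering. HTA4 was called with salt (-0.47 ± 0.18, adjusted p = 0.0333), a call lost without salt 1, salt 3 or salt plus heat 3, but not with mannitol (-0.043 ± 0.17) or both (-0.36 ± 0.18). HIS1-3 fell with salt (-1.26 ± 0.31, adjusted p = 0.0021), from 194, 117 and 106 to 61.9, 58.3 and 50.9 TPM, and was not called with mannitol (-0.23 ± 0.30) or both (-0.50 ± 0.30). With only the compared groups fitted, the changes with both were called for HTA4 (-0.37 ± 0.12, adjusted p = 0.0176) and HIS1-3 (-0.51 ± 0.16, adjusted p = 0.0308). HTR11 rose with salt (0.97 ± 0.32) and with both (0.86 ± 0.32) and fell with mannitol (-0.72 ± 0.31), and each of these calls was lost without 1 or more single libraries. AT3G09480 rose with salt (1.26 ± 0.31) and with both (0.93 ± 0.27), and HTA12 rose with salt (0.30 ± 0.12) and with mannitol (0.39 ± 0.12), calls also lost without single libraries, mannitol 2 or mannitol plus heat 2 in the latter. The rise of HTA12 with salt was also lost with DESeq2, other scalings and no filter on low counts. HTA3 rose with salt (0.46 ± 0.093), and HTA10 with both (0.23 ± 0.088), the latter lost without salt plus mannitol 1 or combined-stress library 1, with only the compared groups fitted and with DESeq2. Of the differences between heat changes named here, those of HTA4 and HTR11 after mannitol were called when tested as departures. With only the compared groups fitted, that of HTA4 was not called (0.80 ± 0.29, adjusted p = 0.138), and 0 genes were called downwards. AT5G02570, a low gene, fell by 2.504 with mannitol and by 3.25 without mannitol plus heat 1.

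Whether heat acted differently after watering was tested as a departure, the heat change in watered plants minus that in unwatered ones on the log2 scale. With salt, 5 of 49 genes departed upwards and 0 downwards (1.40% of all tested genes departed, 0.859% upwards and 0.544% downwards). With mannitol, 8 departed upwards and 1 downwards (8.78% of all, 3.59% upwards and 5.19% downwards); library totals alone gave 7 and 2. With both, 12 departed upwards and 0 downwards (5.58% of all, 2.47% upwards and 3.11% downwards). For the genes called, upward means a smaller fall. H4 genes made up 3, 5 and 6 of these, among them AT3G46320 at 1.13 ± 0.17, 1.09 ± 0.17 and 0.88 ± 0.17, and AT3G53730 at 0.98 ± 0.16 with mannitol and 1.19 ± 0.16 with both. AT3G53730 was at 73.7, 71.5 and 66.9 TPM with heat, 113, 152 and 133 with mannitol plus heat and 163, 165 and 164 with all 3, and neither combination overlapped heat alone. No H3.3 gene departed with salt or mannitol, and AT4G40030 did with both (0.41 ± 0.094). At an unadjusted p under 0.05, 0 genes departed downwards with salt and 0 with both, and DESeq2 also called 0 of them. With mannitol, 2 departed downwards at that threshold, and DESeq2 called 0 downwards. These 3 departures share the control and heat libraries. An upward departure can come from a lower unheated level or a higher heated level. At 22 °C, salt lowered 11 genes and raised 1, and in salt plus heat against heat 0 were called. Mannitol lowered 3 and raised 2 at 22 °C, and in mannitol plus heat against heat 15 rose and 0 fell. With both, 13 fell and 6 rose at 22 °C, and 16 rose and 2 fell against heat.

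Counts of departures depended on single libraries. With salt, the count was 1 without control 3, salt 3, heat 2, heat 3 or salt plus heat 1, 2 without control 2, salt 1 or salt 2, 3 without salt plus heat 2, and 9 without heat 1. With mannitol, it was 5 without control 2, control 3 or mannitol 2, 14 without mannitol 1 and 16 without heat 1. With both, it stayed between 9 and 16.

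At 22 °C, HIS1-3 rose with salt, with mannitol and with both, and no other histone gene rose with salt. HIS1-3 was at 48.1, 54.7 and 38.7 TPM in control, 194, 117 and 106 with salt, 103, 86.6 and 141 with mannitol and 226, 160.2 and 151 with both. Each treated group lay above every control. The rises were 1.54 ± 0.31 (adjusted p = 0.00498) with salt, 1.22 ± 0.31 (adjusted p = 0.00904) with mannitol and 1.89 ± 0.31 (adjusted p = 0.000254) with both. Without mannitol 3, the rise with mannitol was 0.99 and no longer called (adjusted p = 0.0571). Its share of linker H1 transcripts was 14.1 ± 1.95% in control, 34.2 ± 6.73% with salt, 25.4 ± 3.20% with mannitol and 32.9 ± 3.37% with both.

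**Figure D5:**
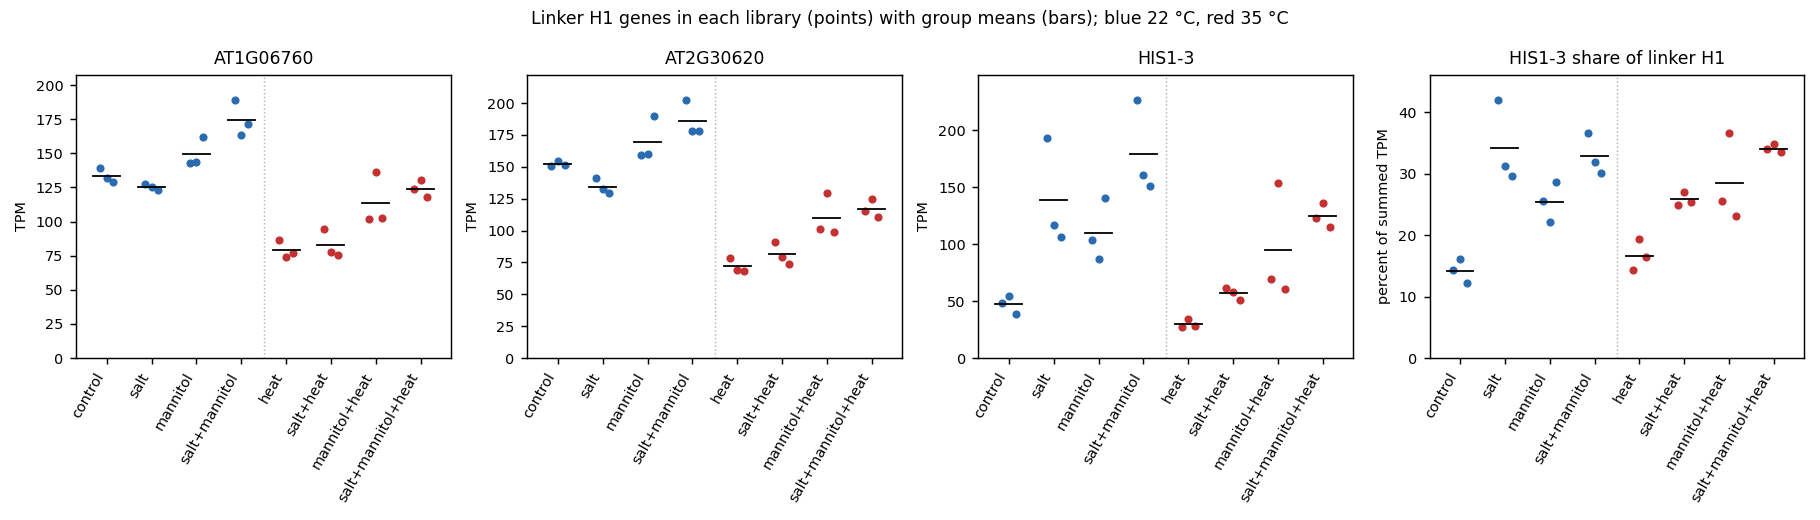
TPM of the 3 linker H1 genes in each library (points) with group means (bars), and HIS1-3 as a percent of their summed TPM, unheated in blue and heated in red. By group mean, TPM of HIS1-3 is lowest in heat alone and highest with salt plus mannitol, while its share is lowest in control and highest with salt. In both HIS1-3 panels, mannitol plus heat 2 stands above its replicates.

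With salt, 11 of 49 genes fell and 1 rose (10.9% of all tested genes called, 6.40% lower and 4.54% higher), with a median of -0.22. The 11 were 5 H4 genes, 3 canonical H2A genes, HTA3, HTB1 and AT3G27360. AT3G46320 was at 115, 106 and 124 TPM in control and 77.6, 80.9 and 68.3 with salt (-0.63 ± 0.10, adjusted p = 0.000404). AT5G59970 changed by -0.50 ± 0.13, AT3G45930 by -0.58 ± 0.15, AT5G59690 by -0.42 ± 0.11, HTA3 by -0.42 ± 0.092 and HTA10 by -0.41 ± 0.088. The calls of AT5G59970, AT3G45930 and AT5G59690 were lost without control 3 or salt 1. No H2A.Z or H3.3 gene was called, at -0.36 to -0.011 and -0.16 to -0.052. The count of 12 calls was 5 without control 3 and 6 without salt 1. With library totals alone, under which the median of all genes moved to 0.11, 7 fell and 1 rose.

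With mannitol, 3 genes fell and 2 rose (23.6% of all tested genes called, 11.4% lower and 12.2% higher), with a median of -0.06. The H2B gene AT2G28720 was at 146, 174 and 160.2 TPM in control and 208, 204 and 269 with mannitol (0.50 ± 0.14, adjusted p = 0.0112), the other rise beside HIS1-3. HTA10, AT3G46320 and HIS4 fell by 0.26 ± 0.087, 0.29 ± 0.10 and 0.27 ± 0.085. The rise of AT2G28720 was lost without control 1 or mannitol 3, and the 3 falls were each lost without control 3, mannitol 2 or mannitol 3, and those of HTA10 and HIS4 with only the compared groups fitted. With library totals alone 3 genes rose and 0 fell. The count was 3 without control 1 or control 2, 2 without control 3 or mannitol 2, and 0 without mannitol 3.

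With salt plus mannitol, 13 genes fell and 6 rose (32.6% called, 17.2% lower and 15.4% higher), with a median of -0.17. All 3 linker H1 genes rose: AT1G06760 was at 189, 163 and 171 TPM (0.37 ± 0.10, adjusted p = 0.00669) and AT2G30620 at 202, 178 and 178 (0.28 ± 0.10, adjusted p = 0.0347), the latter lost without any control or without salt plus mannitol 1. HTA12 rose from 21.5, 25.1 and 25.2 to 39.9, 30.96 and 35.1 (0.53 ± 0.12, adjusted p = 0.00215), with AT2G28720 (0.45 ± 0.14, lost without control 1 or salt plus mannitol 1) and HON5 (0.22 ± 0.060). HTA11 fell to 26.6, 30.4 and 39.6 TPM (-0.61 ± 0.17, adjusted p = 0.00661) and HTA9 to 187, 167 and 181 (-0.28 ± 0.081, adjusted p = 0.0107), the first call lost without control 3 or salt plus mannitol 1, the second without control 3 or salt plus mannitol 2. AT5G59970 fell by 0.52 ± 0.13, AT3G46320 by 0.41 ± 0.10 and AT5G65360 by 0.39 ± 0.12, the last lost without control 3 or salt plus mannitol 1. AT4G40030 was the only H3.3 gene called (-0.27 ± 0.066, adjusted p = 0.00281). The count of 19 was 9 without control 3 and 10 without salt plus mannitol 1, and with library totals alone 4 fell and 8 rose. As a departure from the sum of the single effects, 1 gene was called, AT3G46320 (0.51 ± 0.14, adjusted p = 0.0305; 6.60% of all tested genes, 2.84% upwards and 3.76% downwards), and the count was 0 without control 2, control 3, salt 3, mannitol 2, mannitol 3 or salt plus mannitol 3, 2 without mannitol 1 and 3 without salt plus mannitol 1. Watering enters both single effects and their combination a single time, so this departure and watering cannot be told apart.

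Among heated plants, several histone genes were higher with mannitol than in heat alone. In mannitol plus heat against heat, 15 of 49 genes rose and 0 fell (12.3% of all tested genes called, 6.0% higher and 6.31% lower), with a median of 0.24. All 3 linker H1 genes were among them. HIS1-3 was at 69.7, 154 and 60.6 TPM against 27.4, 34.1 and 28.5 with heat alone (1.63 ± 0.32, adjusted p = 0.00464). The log2 change was 1.098 without mannitol plus heat 2, the library with the highest organelle share (0.690% of reads, at most 0.136% in the others). The call held without any 1 library. AT1G06760 was at 102, 136 and 103 (0.52 ± 0.10, adjusted p = 0.00273) and AT2G30620 at 101, 129 and 98.6 (0.60 ± 0.10, adjusted p = 0.000755). The 5 H4 genes that rose were led by AT3G53730 (0.86 ± 0.12), AT3G46320 (0.80 ± 0.13) and AT3G45930 (0.80 ± 0.18). HTA4 rose from 13.5, 9.22 and 16.8 to 24.3, 23.5 and 17.8 (0.70 ± 0.18, adjusted p = 0.0174), a call lost without heat 2, mannitol plus heat 1 or mannitol plus heat 2. No H3.1 or H3.3 gene was called. The count was 8 without heat 2, and 23 with library totals alone. With only the compared groups fitted it was 4, and the calls of HIS1-3, AT1G06760, HTA4 and AT3G46320 were lost (adjusted p = 0.101, 0.0694, 0.126 and 0.0637). At an unadjusted p under 0.05, 3 genes were lower, and DESeq2 called 0 lower.

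With all 3 stresses against heat, 16 genes rose and 2 fell (23.1% of all tested genes called, 9.97% higher and 13.1% lower), with a median of 0.20. HIS1-3 was at 123, 136 and 115 TPM (2.03 ± 0.32, adjusted p = 0.000391), AT1G06760 at 124, 130.1 and 118 (0.64 ± 0.10, adjusted p = 0.000161) and AT2G30620 at 116, 125 and 111 (0.70 ± 0.10, adjusted p = 5.53e-05). None overlapped heat alone. AT3G53730 rose by 1.15 ± 0.12, AT3G45930 by 0.73 ± 0.18 and AT2G28720 by 0.63 ± 0.14. The H2A.X gene H2AXA rose by 0.40 ± 0.082. The 2 that fell were H2A.Z genes, HTA11 at 9.07, 8.98 and 10.6 TPM (-0.63 ± 0.21, adjusted p = 0.0323) and HTA9 at 125, 163 and 141 (-0.27 ± 0.082, adjusted p = 0.0196). The first was lost without heat 1, heat 2 or combined-stress libraries 1 or 2, the second without heat 2 or combined-stress libraries 1 or 3 or with only the compared groups fitted, and with library totals alone 26 rose and 0 fell.

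With salt plus heat against heat, edgeR called 0 of 49 genes (1.03% of all tested genes called, 0.365% higher and 0.664% lower), with a median of 0.07. At an unadjusted p under 0.05, 8 were higher and 0 lower, and DESeq2 called 0. HIS1-3 was at 61.9, 58.3 and 50.9 TPM, above all libraries of heat alone, but was not called (0.91 ± 0.33, adjusted p = 0.218). With only the compared groups fitted it was called (0.91 ± 0.11, adjusted p = 0.0132). The H2A.Z genes lay at -0.0050 to 0.28 and the H3.3 genes at -0.062 to 0.060.

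Against the common control, salt plus heat lowered 38 genes and raised 4 (63.2% of all tested genes called, 31.5% lower and 31.7% higher), mannitol plus heat 34 and 5 (64.7%, 32.0% lower and 32.6% higher) and all 3 stresses 34 and 6 (65.7%, 32.7% lower and 33.0% higher). HIS1-3, which rose with the solutes and had its lowest level in heat, was above control with mannitol plus heat (0.99 ± 0.32, adjusted p = 0.0112, 0.46 and not called without mannitol plus heat 2, and not called with only the compared groups fitted) and with all 3 (1.38 ± 0.31, adjusted p = 0.000912), and not called with salt plus heat (0.27 ± 0.32). HTA11 reached its lowest level with all 3 (-2.34 ± 0.19, adjusted p = 6.36e-10). HTA12 rose with each combination (0.45 ± 0.13, 0.47 ± 0.13 and 0.48 ± 0.13), as did AT5G08780 (1.47 ± 0.17, 1.21 ± 0.17 and 1.21 ± 0.17). All 3 share the control libraries.

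Genes that work with histones were counted beside them. Of 18 genes of DNA replication in S phase, 17 fell and 1 rose in heat against control, with a median of -1.14 (30.9% of all tested genes called lower and 31.7% higher). The largest falls were in the origin and licensing genes CDC45 (-2.06 ± 0.31), CDT1A (-1.84 ± 0.19), CDC6 (-1.75 ± 0.24) and ORC2 (-1.73 ± 0.41). In the other heat comparisons, 15 fell after salt, 16 after mannitol and 15 after both, where 28.5%, 30.1% and 29.4% of all tested genes fell. Of 16 mitosis genes, 11 fell and 0 rose in heat against control (median -0.74), led by the B-type cyclins CYCB1;2 (-1.28 ± 0.22) and CYCB1;4 (-1.17 ± 0.22). In the same order, 4, 16 and 14 fell in the other heat comparisons. At 22 °C, salt plus mannitol lowered 5 of the 18 replication and 5 of the 16 mitosis genes, and 17.2% of all tested genes. Calls in these lists differed from those in histone genes in some comparisons, but a difference between lists was not tested. In mannitol plus heat against heat, 15 histone genes rose, while 0 replication and 0 mitosis genes rose and 1 and 2 fell. Among all tested genes, 6.0% were higher and 6.31% lower. Median changes were 0.24 in histone, 0.18 in replication and -0.38 in mitosis genes. In salt plus mannitol plus heat against heat, 16 histone genes rose and 2 fell (median 0.20). There, 0 replication genes rose and 1 fell (median -0.06), and 0 mitosis genes rose and 10 fell (median -0.73). Among all tested genes, 9.97% were higher and 13.1% lower. Of the heat departures after salt, mannitol and both, 0 were called in either list. Of all tested genes, 1.40%, 8.78% and 5.58% departed. In the same order, median departures were 0.41, 0.24 and 0.32 in replication genes and 0.35, -0.40 and -0.39 in mitosis genes. In histone genes they were 0.32, 0.30 and 0.33.

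Of 18 histone chaperones, 7 rose and 6 fell with heat (median 0.06), close to the shares of all tested genes, 31.7% higher and 30.9% lower. Among those that fell were FAS1 (-1.95 ± 0.19), ASF1B (-1.15 ± 0.18) and NASP (-1.06 ± 0.12); FAS1 is a subunit of CAF-1, and NASP is a chaperone of H3. Among those that rose were NAP1;1 (1.35 ± 0.11), NRP1 (1.297 ± 0.10) and NRP2 (1.01 ± 0.11), which belong to the family of nucleosome assembly proteins that bind H2A and H2B. Values of the other chaperones are not given, and a difference between chaperone families was not tested. Of 7 genes of the SWR1 complex, which places H2A.Z, 3 rose and 2 fell (median 0.13), beside the same shares of all genes, with SWC4 at -0.63 ± 0.083 and ARP4 at 0.56 ± 0.064.

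Tissue markers moved in part as well. Summed TPM of the 4 leaf genes was 53880 to 61590 in control and 29140 to 31340 in heat. Summed TPM of the 3 meristem genes was 8.13 to 9.90 in control and 6.59 to 7.001 in heat. WUS was under 0.5 TPM in every group, STM was at 3.38 ± 0.474 and 3.36 ± 0.0582 TPM, and KNAT1, which fell (-0.64 ± 0.15), at 5.53 ± 0.501 and 3.49 ± 0.223. Root markers, among them GL2, which is also known from leaf trichomes, summed to 132.9 to 183.3 in control and 155.2 to 188.9 in heat. Of these 3 genes, 1 rose and 0 fell, beside 31.7% higher and 30.9% lower among all tested genes. The part of leaf, root or meristem tissue in the histone values was not tested.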

How the data were processed

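Libraries were made with a TruSeq RNA kit, which selects polyadenylated RNA and does not mark strand, and sequenced as paired 100-base reads, per the labels' protocols. CASAVA, kallisto 0.45.1 and sleuth 0.30.0 are named in the submitters' processing notes, and Araport 11 as the annotation in the file header; the genome build is not given in the sources used here. The authors deposited estimated counts and a TPM signal per library. The deposited estimated counts had been multiplied by 1 constant per library, so they were divided by it (94.7 to 95.2% of values then came out whole within 0.01) and rounded; TPM values, which sum to 0.920 to 1.12 M per library, were used for levels only. edgeR 4.0.16 in R 4.3.3 was run with TMM scaling, filterByExpr and the robust quasi-likelihood test on all 24 libraries in 1 model, with 17 contrasts and Benjamini-Hochberg adjustment over 20027 genes, and was tested on simulated data. DESeq2 1.42.0, other scalings, no filter, a replicate block and leaving out each library were alternatives. Members, lists and tests were chosen with earlier results of these data known. Genes named with full values were all linker H1, H2A.Z and H3.3 genes, HTR12, and up to 6 called genes per direction with the largest change and at least 5 TPM, and up to 4 per related list; some others are named after their values were seen. Gene symbols, exons and promoter windows came from RefSeq TAIR10.1, to which all 54 genes matched.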

Additional observations from a re-analysis of the deposited data

Results flagged for a closer look

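A total of 27 heat or combination effects differed from those of the single treatments by the interaction term of the edgeR model (adjusted p under 0.05), given as log2 departures. All these terms share the control libraries, and those for heat also share the heat libraries. Of all tested genes, 6.60% departed with salt plus mannitol, and 1.40%, 8.78% and 5.58% for heat after salt, mannitol and both. Genes of H4 gave 15 of the 27. AT3G46320 and AT3G45930 share 35.3% and 32.7% of their 31-base words with other transcripts, mostly each other. The 15 are therefore not separate results. AT3G46320 departed by 0.51 with salt plus mannitol at 22 °C, and for heat by 1.13 after salt, 1.09 after mannitol and 0.88 after both. AT3G45930 departed by 1.06, 0.98 and 1.122 in the same order, and HIS4 by 0.57, 0.60 and 0.52. AT3G53730 departed by 0.98 after mannitol and 1.19 after both, AT1G07820 by 0.40 and 0.45, and AT5G59970 by 0.89 after both. In each of these heat departures the fall was smaller in watered plants.

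Among H2B genes, HTB1 departed by 0.65 after salt and 0.67 after both, and HTB9 by 0.39 after mannitol and 0.58 after both. Among H3 genes, AT3G27360 departed by 0.61 after salt and 0.53 after both, AT1G09200 by 0.84 and AT4G40030 by 0.41 after both. After mannitol, the linker gene AT2G30620 departed by 0.45, HTA4 by 0.82 and HTR11 by -1.44, the only downward departure of the 27. HTR11 held 7 to 29 reads per library. DESeq2 and the fit of only the compared groups called 0 downward departures after mannitol. HTA13 departed by 0.80 after both. The calls of AT2G30620, HTA4 and HTR11 were each lost when any of 8 libraries was left out, and that of AT1G09200 when any of 11 was. With only the compared groups fitted, the calls of HTB1, AT3G27360 and AT3G45930 after salt and of AT2G30620 and HTA4 after mannitol were lost. With library totals alone, those of HTB1, AT3G27360 and HIS4 after salt, AT2G30620 after mannitol and AT3G46320 with salt plus mannitol were lost, and with no filter on low counts those of AT3G27360 after salt and AT1G09200 after both.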

How the results depend on the processing

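Called values were summed up only for genes picked by class, or by a large change with at least 5 TPM. Other called members are not counted here. Of these 183 called gene values, 0 changed sign under any alternative, and 141 kept call and direction in every one. The call was lost without 1 library in 36. Counts of called genes without 1 library ranged from 5 to 12 for salt against control, 0 to 6 for mannitol, 9 to 17 for salt plus mannitol and 39 to 40 for heat. For heat after salt, mannitol and both, they ranged from 37 to 41, 37 to 39 and 37 to 39. Against heat alone they were 0 to 0 for salt plus heat, 8 to 21 for mannitol plus heat and 12 to 20 for all 3, and against control 40 to 42, 36 to 39 and 37 to 40. Departures ranged from 0 to 3 for salt plus mannitol, and for heat from 1 to 9 after salt, 5 to 16 after mannitol and 9 to 16 after both. With library totals alone, under which the median of all genes moved by up to 0.17, mannitol gave 3, salt plus mannitol 12, and mannitol plus heat against heat 23, with 0 for the salt plus mannitol departure and 2 for that of heat after salt. With only the compared groups they were 3 for mannitol, 1 for salt plus heat against heat, 4 for mannitol plus heat against heat, and 3, 2 and 4 for the departures of salt plus mannitol, heat after salt and heat after mannitol. RLE scaling gave 2 for the salt plus mannitol departure, and DESeq2 gave 2 for it and 8 for heat after salt. The cause of these differences was not tested.

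Replicate numbers were not taken as pairs in the main fit, and whether they mark shared batches was not tested. Correlations of deviations in 84 same-numbered pairs of libraries ran from -0.334 to 0.282, 21 of them over 0.1. Pairs with other numbers ran from -0.318 to 0.347. Of 24 libraries, 14 correlated best with their own number. With the replicate block, called genes numbered 11 for salt, 5 for mannitol, 17 for salt plus mannitol and 42 for heat against control. Heat after salt, mannitol and both gave 42, 39 and 38. Against heat the block gave 0, 14 and 18, against control 41, 40 and 40, and for departures 1, 4, 7 and 11. Calls lost with the block were the departures of HTB1 after salt, AT2G30620 and HTA4 after mannitol and AT1G09200 after both (adjusted p = 0.0524, 0.0541, 0.0504 and 0.0608), AT3G45930 with salt plus mannitol (0.0506), and AT1G72740 in heat after mannitol (0.0515) and in salt plus heat against control (0.0537).

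Of the 90 values not called among the same genes, picked by class or change, 31 changed sign in 1 or more alternatives. None of these, 0 of 31, were called there. In salt against control the sign changed for AT1G06760 (0.0087 with library totals), HTA9 (0.10 with library totals, 0.00072 with RLE scaling, 0.0016 with DESeq2, -0.041 to 0.043 without 1 library), AT4G40030 (0.057 with library totals) and AT4G40040 (0.047 with library totals). In mannitol against control the sign changed for HTA4 (-0.33 to 0.00020 without 1 library), HTA8 (-0.12 to 0.24 without 1 library), AT4G40030 (0.081 with library totals, -0.051 to 0.016 without 1 library), AT4G40040 (0.087 with library totals, -0.036 to 0.0039 without 1 library) and AT5G10980 (0.033 with library totals). In salt plus mannitol against control the sign changed for HTA4 (0.10 with library totals, 0.0041 with RLE scaling, 0.0051 with DESeq2, -0.076 to 0.035 without 1 library), AT4G40040 (0.075 with library totals) and AT5G10980 (0.083 with library totals, -0.062 to 0.0031 without 1 library). In mannitol plus heat against mannitol the sign changed for HIS1-3 (-0.76 to 0.018 without 1 library) and HTA4 (-0.16 to 0.16 without 1 library). In salt plus heat against heat the sign changed for AT1G06760 (-0.040 to 0.14 without 1 library), HTA9 (0.019 with library totals, -0.034 to 0.051 without 1 library) and AT4G40030 (-0.00050 with RLE scaling, -0.0046 with no filter, -0.0021 with only the compared groups, -0.00012 with DESeq2, -0.069 to 0.049 without 1 library). In mannitol plus heat against heat the sign changed for HTA8 (-0.14 to 0.072 without 1 library) and AT5G10980 (-0.035 to 0.054 without 1 library). In all 3 stresses against control the sign changed for AT1G06760 (0.074 with library totals). In the salt plus mannitol departure the sign changed for HTA8 (-0.28 to 0.078 without 1 library), HTA11 (-0.31 to 0.047 without 1 library) and AT4G40040 (-0.059 with library totals). In the heat departure after salt the sign changed for HTA9 (-0.079 with library totals, -0.0092 with RLE scaling, -0.012 with no filter, -0.022 with only the compared groups, -0.0099 with DESeq2, -0.057 to 0.056 without 1 library) and AT4G40030 (-0.030 with library totals, -0.022 to 0.10 without 1 library). In the heat departure after mannitol the sign changed for HIS1-3 (-0.12 to 0.66 without 1 library), HTA8 (-0.31 to 0.056 without 1 library), HTA9 (-0.037 with library totals, -0.0020 with the replicate block, -0.016 with only the compared groups, -0.044 to 0.063 without 1 library) and HTA11 (-0.20 to 0.12 without 1 library). In the heat departure after both the sign changed for HTA9 (-0.0048 with library totals, -0.0053 with RLE scaling, -0.0025 with only the compared groups, -0.0078 with DESeq2, -0.090 to 0.092 without 1 library) and HTA11 (-0.16 to 0.15 without 1 library).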
